A study of Mus musculus with 21 samples.

Results

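The genes described here are 35 genes of sterol and fatty acid synthesis, listed by name from the known pathways, with earlier results of these data in view, and read in all 21 RNA-seq libraries of sorted myeloid cells of mouse adipose tissue. They form a sterol branch of 18 enzymes, a group of 6 regulators and sterol carriers, and a fatty acid branch of 11 enzymes, out of 54532 genes counted. All 35 passed the filter on low counts that left 22935 genes for testing. The mice were male C57BL/6 animals, made obese on a high fat diet (HFD) or kept lean on a normal diet (ND) for 16 weeks. The cells were released with collagenase and sorted by flow cytometry. There were 3 libraries in each of 7 groups: obese and lean MHCII-low macrophages, obese and lean CD11c-negative macrophages that carry MHC class II, obese CD11c-positive macrophages with MHC class II, and obese and lean monocyte-derived cells. No CD11c-positive macrophages of lean mice were among the samples, so diet could be compared in 3 of the 4 populations. Whether a group's replicates came from separate animals is not said in the labels, and p-values then measure only the spread between these samples.

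Cholesterol is built from acetyl-CoA through mevalonate, isoprenoid diphosphates, squalene and lanosterol, and fatty acids are built from the same acetyl-CoA through malonyl-CoA. Both routes are controlled by SREBP transcription factors: Srebf2 encodes the factor known chiefly for sterol genes, and Srebf1 the factors known chiefly for fatty acid genes. In the endoplasmic reticulum SCAP escorts SREBPs to activation, and Insig proteins hold SCAP back when sterols are plentiful. In macrophages, which take up large amounts of lipid, liver X receptors (LXRs) sense oxysterols and are known to induce Srebf1, Scd1 and sterol efflux genes.

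Library totals ran from 11245851 to 35568948 counts. Replicates correlated at 0.972 to 0.990 in 6 groups and at 0.904 to 0.942 in lean monocyte-derived cells (Pearson's r of log2 CPM across genes). The 6 macrophage markers were detected in every library and summed to 4986 to 9273 CPM (counts per 1000000 of the library total) in macrophage libraries. In monocyte-derived libraries they summed to 3145 to 4347 CPM in the obese group and 1704 to 6203 CPM in the lean group, and the 6 dendritic cell markers there to 388 to 855 and 366 to 1315 CPM in obese and lean groups. Summed fibroblast markers were highest in replicate 2 of all 4 obese groups (1158 to 1769 CPM, against 428 to 841 CPM in the other obese libraries), so counts of called genes are also given without these 4 libraries. They also differed by diet, at 731 to 1672 CPM in obese and 524 to 672 CPM in lean MHCII-low macrophages, 729 to 1769 CPM in obese and 443 to 599.7 CPM in lean CD11c-negative macrophages, and 428 to 1256 CPM in obese and 162 to 239 CPM in lean monocyte-derived cells. In each of the 3 populations 3 of the 6 markers rose with diet and 0 fell. Dcn and Pdgfra, not called in macrophages, averaged lower in both obese macrophage populations, against the sums. Dcn had 82.8, 208.6 and 121.3 CPM, scaled as below, in obese and 195.9, 270.7 and 204.8 CPM in lean MHCII-low macrophages. In CD11c-negative macrophages it had 81.8, 240.1 and 140.8 CPM in obese and 159.6, 247.3 and 228.1 CPM in lean mice. The part of the fibroblast markers in the diet results was not tested. Gene levels below are CPM scaled by TMM, a correction for RNA composition, and differences are log2 fold changes ± SE from edgeR's quasi-likelihood test, adjusted by Benjamini-Hochberg over all 22935 genes. The strand setting of the counting is not stated, and 10 members share 30 to 985 exonic bases with genes on the other strand (Hmgcs1, Idi1, Fdft1, Lss, Cyp51, Srebf1, Scap, Elovl6, Acss2 and Me1), so reads of such pairs cannot be told apart. A gene is said to have risen or fallen, or to be called, where the adjusted p was under 0.05. Statements that groups did or did not overlap describe the libraries and are no test. The share of all tested genes so separated is not given here.

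The stretches upstream of 6 members are shown, some of which moved in different directions with diet. Hmgcs1 and Nsdhl rose and Sc5d fell in both macrophage populations of obese mice. Mvd fell in CD11c-negative macrophages and was not called in MHCII-low ones. Fasn and Acly head the fatty acid branch, and Acly was not called with diet. Each is the 250 bases before the start of the RefSeq gene on GRCm38.p6, 5′ to 3′ on the strand of the gene. Capitals mark CCAAT, the box bound by NF-Y, GGGCGG, the box bound by Sp1, and TCACNCCAC, the core of a sterol regulatory element, each read on either strand.
Hmgcs1 (chr13:119690101-119690350, plus strand): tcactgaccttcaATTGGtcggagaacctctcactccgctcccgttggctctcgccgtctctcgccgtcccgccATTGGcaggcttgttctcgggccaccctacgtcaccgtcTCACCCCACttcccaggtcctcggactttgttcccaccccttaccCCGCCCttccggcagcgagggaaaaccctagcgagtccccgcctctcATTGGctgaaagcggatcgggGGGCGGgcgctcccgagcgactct
Nsdhl (chrX:72918271-72918520, plus strand): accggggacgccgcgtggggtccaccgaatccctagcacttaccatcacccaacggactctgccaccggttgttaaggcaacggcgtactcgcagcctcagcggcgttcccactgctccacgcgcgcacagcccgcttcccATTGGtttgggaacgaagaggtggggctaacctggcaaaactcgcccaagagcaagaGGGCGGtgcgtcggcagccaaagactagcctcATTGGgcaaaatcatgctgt
Mvd (chr8:122443423-122443672, minus strand): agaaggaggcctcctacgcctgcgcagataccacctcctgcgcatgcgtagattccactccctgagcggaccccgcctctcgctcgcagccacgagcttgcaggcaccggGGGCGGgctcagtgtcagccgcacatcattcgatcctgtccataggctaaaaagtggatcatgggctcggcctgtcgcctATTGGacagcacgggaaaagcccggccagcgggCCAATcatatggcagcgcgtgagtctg
Sc5d (chr9:42264301-42264550, minus strand): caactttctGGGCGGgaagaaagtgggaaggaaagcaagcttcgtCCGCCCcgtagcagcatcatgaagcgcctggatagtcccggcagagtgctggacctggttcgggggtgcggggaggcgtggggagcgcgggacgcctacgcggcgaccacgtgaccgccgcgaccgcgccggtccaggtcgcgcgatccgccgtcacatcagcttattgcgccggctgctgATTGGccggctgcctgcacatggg
Fasn (chr11:120824548-120824797, minus strand): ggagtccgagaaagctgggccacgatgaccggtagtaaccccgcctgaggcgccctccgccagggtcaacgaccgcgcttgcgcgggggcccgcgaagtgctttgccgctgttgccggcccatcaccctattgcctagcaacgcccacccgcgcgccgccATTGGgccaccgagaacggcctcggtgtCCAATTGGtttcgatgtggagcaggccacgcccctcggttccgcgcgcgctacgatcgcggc
Acly (chr11:100528001-100528250, minus strand): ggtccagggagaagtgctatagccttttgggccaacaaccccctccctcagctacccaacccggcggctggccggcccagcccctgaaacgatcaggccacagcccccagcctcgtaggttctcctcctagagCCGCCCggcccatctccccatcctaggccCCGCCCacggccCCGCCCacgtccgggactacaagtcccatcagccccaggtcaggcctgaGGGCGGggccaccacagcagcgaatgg
Of the 35 members, 28 had such a stretch in the RefSeq table. Fads1, Scd1, Scd2, Sqle, Fdft1, Fdps and Stard4 had none. Some stretches lie inside the gene as GENCODE draws it, among them all 250 bases for Acaca and Tm7sf2 and 243 for Fads2. The branches are thus not compared on promoter sequence alone. A gene with more than 1 stretch was counted if any of them matched. CCAAT lay in that of 14 of 15 sterol genes, 4 of 5 regulators and 4 of 8 fatty acid genes with a stretch, against 37.5% of all 27025 genes. For Dhcr7 and Me1 it lay only in a stretch with all 250 bases inside the gene. GGGCGG lay in 14 of 15 sterol genes, 5 of 5 regulators and 4 of 8 fatty acid genes, against 35.4% of all genes. TCACNCCAC lay in 1 of the 28, Hmgcs1, against 1.2% of all genes. The CCAAT matches of Fasn overlap each other in part. Genes that rose and genes that fell, such as Hmgcs1 and Mvd, both held CCAAT and GGGCGG. These are matches of letters, not measured binding.

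In obese MHCII-low macrophages 16 of the 35 genes changed relative to lean ones, 11 higher and 5 lower, where 30.7% of all tested genes were called (16.8% higher and 13.8% lower). In obese CD11c-negative macrophages 17 changed relative to lean ones, 12 higher and 5 lower, where 32.4% of all tested genes were called (16.8% higher and 15.6% lower). The shares of members called, 45.7% and 48.6%, were above those of all genes, for a list drawn up with these data in view, and the branches differed. Among the 18 sterol genes, 7 rose and 2 fell in MHCII-low macrophages and 8 rose and 3 fell in CD11c-negative macrophages, with median log2 fold changes of 0.40 and 0.37, against -0.07 and -0.10 over all tested genes. Among the 11 fatty acid genes, 1 rose and 3 fell in MHCII-low macrophages and 3 rose and 2 fell in CD11c-negative macrophages, with medians of -0.14 and -0.07. The genes that rose in both macrophage populations were Hmgcs1, Idi1, Cyp51, Msmo1, Nsdhl, Ebp, Dhcr7, Srebf1 and Fads1, which are 9 of the 11 and of the 12. Fdft1, Sc5d, Scd1 and Fads2 fell in both, 4 of the 5 in each. No gene of the 22935, member or not, had a called difference between the diet effects of these 2 populations (edgeR), 1 member had an unadjusted p under 0.05 there, and DESeq2 called 0 members. In MHCII-low macrophages the count was 9 on leaving out obese replicate 2, and 10 on leaving out either obese replicate 3 or lean replicate 2. Without replicate 2 of every obese group it was 9 in MHCII-low and 11 in CD11c-negative macrophages, with 4 sterol genes higher and 0 lower in MHCII-low and 6 higher and 1 lower in CD11c-negative macrophages. Cell cycle genes moved beside the sterol genes: 10 of 10 rose in both macrophage populations, and their sums were 527 to 556 CPM in obese and 153 to 193 CPM in lean MHCII-low macrophages and 520.0 to 636 CPM in obese and 206 to 277 CPM in lean CD11c-negative macrophages. The sum of dendritic cell markers went the other way, at 42.9 to 60.8 CPM in obese and 108.5 to 122.9 CPM in lean MHCII-low macrophages. In CD11c-negative macrophages it was 26.8 to 27.6 CPM in obese and 84.6 to 96.5 CPM in lean mice. Much of this was Cd209a, with 41.8, 20.1 and 22.3 CPM in obese and 91.9, 73.1 and 67.1 CPM in lean MHCII-low macrophages. It had 8.33, 2.64 and 5.94 CPM in obese and 60.5, 45.97 and 46.8 CPM in lean CD11c-negative macrophages. Fscn1 of the same list overlapped between obese and lean libraries in both populations. The part of either list in the sterol result was not tested.

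**Figure D1:**
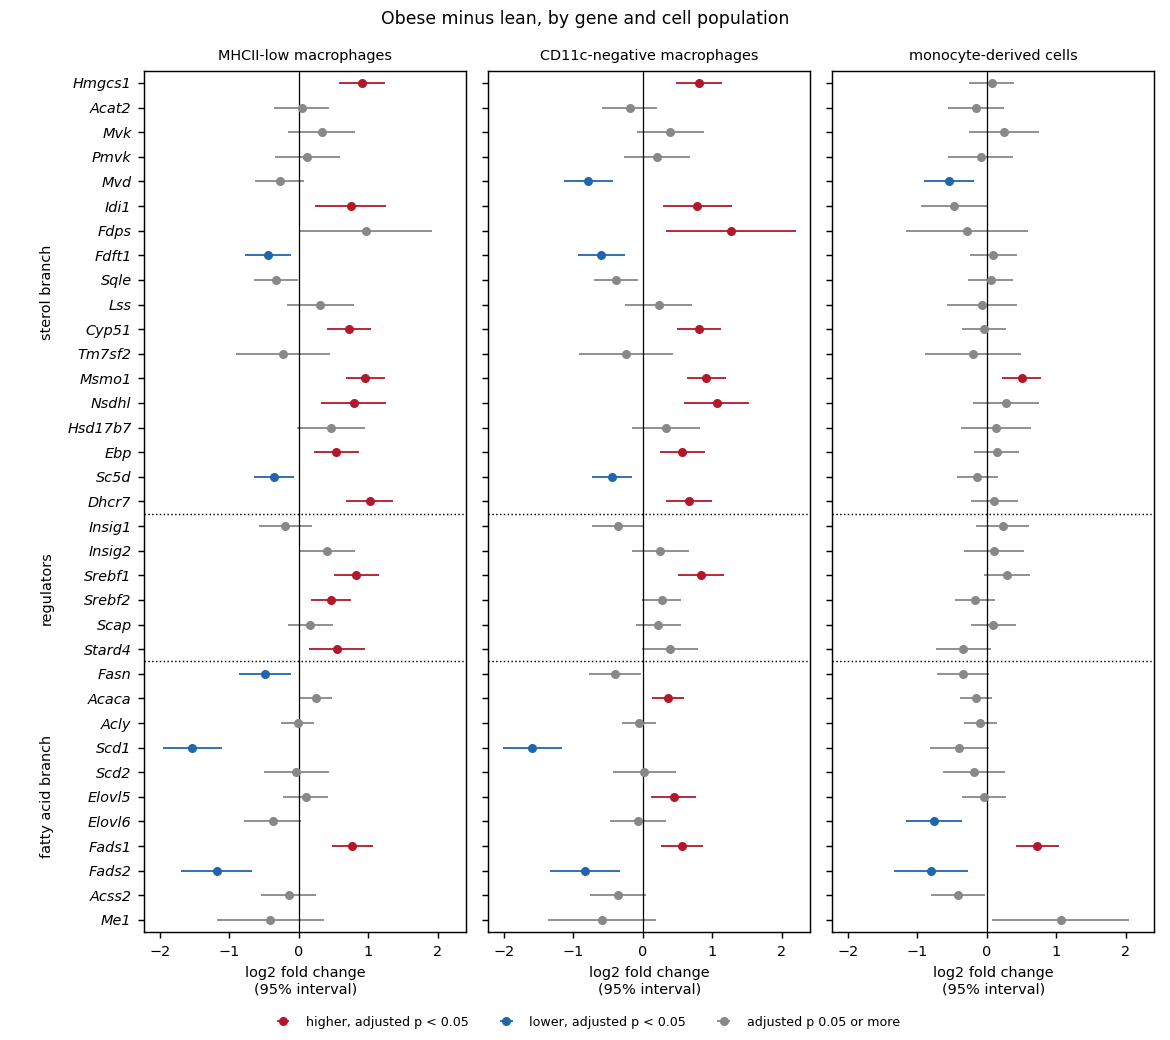
Log2 fold change, obese minus lean, of the 35 genes (rows, by branch) in MHCII-low and CD11c-negative macrophages and in monocyte-derived cells, as points with 95% intervals (3 libraries a group). Red points rose and blue points fell at adjusted p under 0.05. In both macrophage panels most red points lie in the sterol branch, with Mvd, Fdft1 and Sc5d on the other side where called, and Scd1 is the lowest point.

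Among the first steps, from acetyl-CoA to the isoprenoid diphosphates, Hmgcs1, the synthase that makes HMG-CoA, and Idi1 rose in both macrophage populations. Hmgcs1 had 25.9, 38.4 and 29.2 CPM in obese MHCII-low macrophages, against 16.4, 18.4 and 14.9 CPM in lean ones (0.91 ± 0.15, adjusted p = 2.5e-04). In CD11c-negative macrophages it had 32.1, 36.97 and 31.4 CPM in obese mice, against 17.1, 17.5 and 23.1 CPM in lean mice (0.80 ± 0.15, adjusted p = 5.9e-04). Every obese library lay above every lean one in both populations. Idi1, which isomerises isopentenyl diphosphate, averaged 5.43 ± 0.641 CPM in obese and 3.24 ± 0.367 CPM in lean MHCII-low macrophages (0.75 ± 0.24, adjusted p = 0.023), and 6.74 ± 0.763 CPM in obese and 3.92 ± 0.805 CPM in lean CD11c-negative macrophages (0.79 ± 0.23, adjusted p = 0.015; SD, n = 3 each). Its call was lost in each population on leaving out obese replicate 2 or either of 2 lean libraries (replicates 1 and 3 of MHCII-low, 1 and 2 of CD11c-negative macrophages). Fdps, farnesyl diphosphate synthase, was hardly covered, with 3 to 59 reads a library. It had 1.4, 1.02 and 1.26 CPM in obese CD11c-negative macrophages, against 0.633, 0.386 and 0.503 CPM in lean ones (1.27 ± 0.44, adjusted p = 0.031), and 1.34, 1.03 and 0.549 CPM in obese MHCII-low macrophages, against 0.685, 0.146 and 0.647 CPM in lean ones, which was not called (0.97 ± 0.44, adjusted p = 0.1). Obese and lean libraries overlapped for Fdps in MHCII-low macrophages and did not in CD11c-negative ones, and the CD11c-negative call was lost without any 1 of 4 of its 6 libraries (obese replicates 1 and 3, lean replicates 2 and 3). Fdps also shares 1124 exonic bases with Gm43738 on its strand.

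Not every early enzyme moved this way. Mvd, which decarboxylates mevalonate diphosphate, fell in CD11c-negative macrophages, where it averaged 7.96 ± 0.669 CPM in obese mice and 13.7 ± 0.514 CPM in lean mice (-0.78 ± 0.17, adjusted p = 0.0013). In MHCII-low macrophages Mvd averaged 8.90 ± 0.519 CPM in obese mice and 10.8 ± 1.37 CPM in lean mice, which was not called (-0.28 ± 0.16, adjusted p = 0.2). The thiolase Acat2, mevalonate kinase Mvk and phosphomevalonate kinase Pmvk were not called in any diet comparison. Their log2 fold changes ran from -0.19 for Acat2 in CD11c-negative macrophages to 0.40 for Mvk in the same cells. Acat2 has a paralog, Acat3, with which reads could be shared.

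The steps through squalene to lanosterol did not rise. Sqle, squalene epoxidase, a control point of the pathway, had 28.1, 22.9 and 20.97 CPM in obese MHCII-low macrophages, against 27.6, 31.7 and 31.2 CPM in lean ones (-0.33 ± 0.15, adjusted p = 0.093). In CD11c-negative macrophages it had 22.9, 20.6 and 19.5 CPM in obese mice, against 28.2, 26.1 and 27.96 CPM in lean mice (-0.39 ± 0.15, adjusted p = 0.052). Sqle libraries overlapped in MHCII-low macrophages, lay lower in all obese than in all lean CD11c-negative macrophages, and passed the test in neither. Fdft1, squalene synthase, averaged 14.3 ± 2.68 CPM in obese and 19.4 ± 1.57 CPM in lean MHCII-low macrophages (-0.44 ± 0.15, adjusted p = 0.036), and 12.2 ± 1.42 CPM in obese and 18.5 ± 1.4 CPM in lean CD11c-negative macrophages (-0.60 ± 0.15, adjusted p = 0.0061). The exons of Fdft1 overlap those of the cathepsin gene Ctsb, on the other strand, by 774 bases. Ctsb was at 5120 ± 436 CPM of the library total in obese and 3205 ± 355 CPM in lean MHCII-low macrophages, so it moved the other way in this comparison. Without obese replicate 2 Fdft1 lost its call in each population, and in MHCII-low macrophages also without obese replicate 3 or lean replicate 2 or 3. Lss, which closes squalene epoxide to lanosterol, had 4.56, 7.73 and 6.03 CPM in obese MHCII-low macrophages, against 5.48, 5.49 and 3.80 CPM in lean ones, and 4.87, 5.57 and 5.10 CPM in obese CD11c-negative macrophages, against 3.64, 5.10 and 4.53 CPM in lean ones. Its libraries overlapped and it was not called in any diet comparison (0.31 ± 0.22 and 0.23 ± 0.23 in MHCII-low and CD11c-negative macrophages).

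The conversion of lanosterol to cholesterol held most of the sterol genes that rose. Dhcr7, the reductase of the last step, had 12.2, 14.96 and 13.4 CPM in obese MHCII-low macrophages, against 6.85, 6.55 and 6.56 CPM in lean ones (1.02 ± 0.16, adjusted p = 1.1e-04). In CD11c-negative macrophages Dhcr7 had 13.8, 14.5 and 14.9 CPM in obese mice, against 9.77, 9.46 and 8.05 CPM in lean mice (0.66 ± 0.16, adjusted p = 0.0031). All obese libraries lay above all lean ones. Nsdhl, a dehydrogenase that helps remove methyl groups from the ring, had 5.96, 8.91 and 8.10 CPM in obese MHCII-low macrophages, against 4.98, 3.69 and 4.57 CPM in lean ones (0.79 ± 0.22, adjusted p = 0.01), and 6.65, 10.4 and 8.76 CPM in obese CD11c-negative macrophages, against 3.84, 4.64 and 3.89 CPM in lean ones (1.06 ± 0.22, adjusted p = 0.0011). Here too the groups did not overlap. Msmo1, the oxidase that acts before Nsdhl, averaged 28.4 ± 2.36 CPM in obese and 14.6 ± 1.34 CPM in lean MHCII-low macrophages (0.96 ± 0.13, adjusted p = 2.5e-05), and 28.1 ± 4.08 CPM in obese and 14.9 ± 1.23 CPM in lean CD11c-negative macrophages (0.91 ± 0.13, adjusted p = 3.4e-05). Cyp51, the lanosterol demethylase, rose by 0.72 ± 0.15 in MHCII-low and 0.80 ± 0.15 in CD11c-negative macrophages, and Ebp, a sterol isomerase, by 0.54 ± 0.15 and 0.57 ± 0.15. Against these, Sc5d, the desaturase whose product Dhcr7 reduces, averaged 14.3 ± 1.78 CPM in obese and 18.3 ± 0.700 CPM in lean MHCII-low macrophages (-0.35 ± 0.13, adjusted p = 0.048), and 12.5 ± 0.923 CPM in obese and 17.1 ± 2.55 CPM in lean CD11c-negative macrophages (-0.45 ± 0.13, adjusted p = 0.015). Sc5d lost its call in MHCII-low macrophages without any 1 of the 6 libraries, and in CD11c-negative macrophages without any 1 obese library or lean replicate 2. In MHCII-low macrophages Nsdhl and Ebp lost theirs without obese replicate 2 or 3 or lean replicate 2. Hsd17b7, a sterol ketoreductase, and Tm7sf2, a sterol reductase, were not called, with log2 fold changes of 0.47 and -0.22 in MHCII-low and 0.34 and -0.24 in CD11c-negative macrophages. Tm7sf2 shares 532 exonic bases with Vps51 on its strand. Hmgcs1, Cyp51, Msmo1 and Dhcr7 kept their calls in both macrophage populations under every alternative run.

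Among the regulators, Srebf1 rose in both macrophage populations. It had 52.2, 73.6 and 64.7 CPM in obese MHCII-low macrophages, against 35.3, 35.8 and 36.1 CPM in lean ones (0.83 ± 0.15, adjusted p = 5.6e-04). In CD11c-negative macrophages it had 82.5, 72.4 and 65.5 CPM in obese mice, against 38.6, 41.3 and 43.2 CPM in lean mice (0.84 ± 0.15, adjusted p = 3.8e-04). All obese libraries lay above all lean ones, and counts per gene do not separate the transcripts of Srebf1. Srebf2 had 121, 145 and 129.8 CPM in obese MHCII-low macrophages, against 102, 100.1 and 83.8 CPM in lean ones (0.47 ± 0.13, adjusted p = 0.013), a call lost without obese replicate 2 or 3 or lean replicate 3. In CD11c-negative macrophages Srebf2 had 172, 169.6 and 156 CPM in obese mice, against 138, 125 and 149.8 CPM in lean mice, which was not called (0.27 ± 0.13, adjusted p = 0.12). The ratio of Srebf2 to Srebf1 CPM ran from 1.98 to 2.32 in obese and 2.32 to 2.90 in lean MHCII-low macrophages, and from 2.08 to 2.38 in obese and 3.02 to 3.56 in lean CD11c-negative macrophages.

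Neither Insig gene passed the test with diet. Insig1, itself a known SREBP target, had 81.04, 75.2 and 69.5 CPM in obese MHCII-low macrophages, against 70.9, 94.6 and 92.4 CPM in lean ones (-0.19 ± 0.17, adjusted p = 0.42), and 74.5, 62.1 and 70.97 CPM in obese CD11c-negative macrophages, against 71.7, 92.98 and 101 CPM in lean ones (-0.36 ± 0.18, adjusted p = 0.12). Its obese and lean libraries overlapped in both populations. Insig2 had 10.7, 14.4 and 12.3 CPM in obese MHCII-low macrophages, against 10.7, 8.74 and 8.72 CPM in lean ones (0.41 ± 0.19, adjusted p = 0.1), and 7.18, 12.2 and 10.97 CPM in obese CD11c-negative macrophages, against 8.54, 8.19 and 8.74 CPM in lean ones (0.25 ± 0.19, adjusted p = 0.32). Insig2 libraries overlapped as well. Stard4, a carrier of cholesterol between membranes, rose in MHCII-low macrophages (0.54 ± 0.19, adjusted p = 0.034), a call lost with DESeq2's test or its size factors, with no filter on low counts, and without obese replicate 2 or lean replicates 1 or 2. Stard4 had 0.39 ± 0.19 in CD11c-negative macrophages, not called. Scap was not called in any of the 9 comparisons of 2 groups, a property it shared with Acat2, Tm7sf2, Insig1 and Acly.

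In the fatty acid branch the largest change was in the stearoyl-CoA desaturase Scd1, which makes oleate and palmitoleate. Scd1 had 12.1, 14.4 and 11.4 CPM in obese MHCII-low macrophages, against 32.02, 36.6 and 40.7 CPM in lean ones (-1.53 ± 0.20, adjusted p = 1.5e-05). In CD11c-negative macrophages it had 12.8, 19.1 and 14.8 CPM in obese mice, against 42.5, 51.5 and 46.8 CPM in lean mice (-1.59 ± 0.20, adjusted p = 8.2e-06). Scd1 was thus at 0.346 times the lean mean in obese MHCII-low and 0.332 times in obese CD11c-negative macrophages, with no overlap. Scd2, its neighbour and paralog on chromosome 19, had 5.38, 11.7 and 9.65 CPM in obese MHCII-low macrophages, against 8.82, 10.1 and 8.42 CPM in lean ones (-0.03 ± 0.22, adjusted p = 0.92), and 12.3, 12.01 and 10.3 CPM in obese CD11c-negative macrophages, against 12.02, 9.66 and 12.5 CPM in lean ones (0.02 ± 0.21, adjusted p = 0.95). The 95% intervals of the Scd2 differences were -0.50 to 0.43 and -0.43 to 0.48, and its groups overlapped. The ratio of Scd1 to Scd2 CPM was 1.18 to 2.26 in obese and 3.62 to 4.84 in lean MHCII-low macrophages, and 1.04 to 1.59 in obese and 3.53 to 5.33 in lean CD11c-negative macrophages. Paralogs of this kind can share reads.

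Adipocyte markers moved with Scd1. Of the 11 markers, 7 fell and 0 rose in obese MHCII-low macrophages and 6 fell and 0 rose in obese CD11c-negative macrophages. They summed to 9.84 to 12.7 CPM in obese and 43.6 to 55.9 CPM in lean MHCII-low macrophages, and to 12.98 to 15.6 CPM in obese and 54.4 to 66.02 CPM in lean CD11c-negative macrophages, in CPM of the library total. Car3, carbonic anhydrase 3, made up most of the lean sums, at 3.03 to 3.35 CPM in obese and 25.96 to 32.4 CPM in lean MHCII-low macrophages and 4.22 to 4.54 CPM in obese and 34.47 to 43.03 CPM in lean CD11c-negative macrophages. The other 10 markers summed to 6.81 to 9.43 CPM in obese and 17.5 to 23.5 CPM in lean MHCII-low macrophages, and to 8.44 to 11.4 CPM in obese and 19.9 to 23 CPM in lean CD11c-negative macrophages. Lep, the leptin gene, stood the other way in CD11c-negative macrophages, with 4.62, 3.73 and 3.31 CPM in obese and 2.37, 2.82 and 2.56 CPM in lean ones, which was not called (0.59 ± 0.33, adjusted p = 0.17). In each obese library of these cells 0 to 3 of the 11 markers were at 0 (Adrb3 in 4 libraries, Adig and Cfd in 1), and in each lean library 0, while Adipoq, Plin1 and Lep were above 0 in all 12. In monocyte-derived cells, where Scd1 had 12.5, 13.6 and 7.504 CPM in obese mice and 14.6, 15.3 and 14.2 CPM in lean mice, the sums were 4.06 to 9.01 CPM in obese and 7.41 to 9.69 CPM in lean mice. The part of adipocyte RNA in the Scd1 result, and in those of Fasn, Fads2 and other genes that adipocytes express, was not tested. In sorted bulk samples fewer cells of a type and less RNA per cell cannot be told apart.

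**Figure D2:**
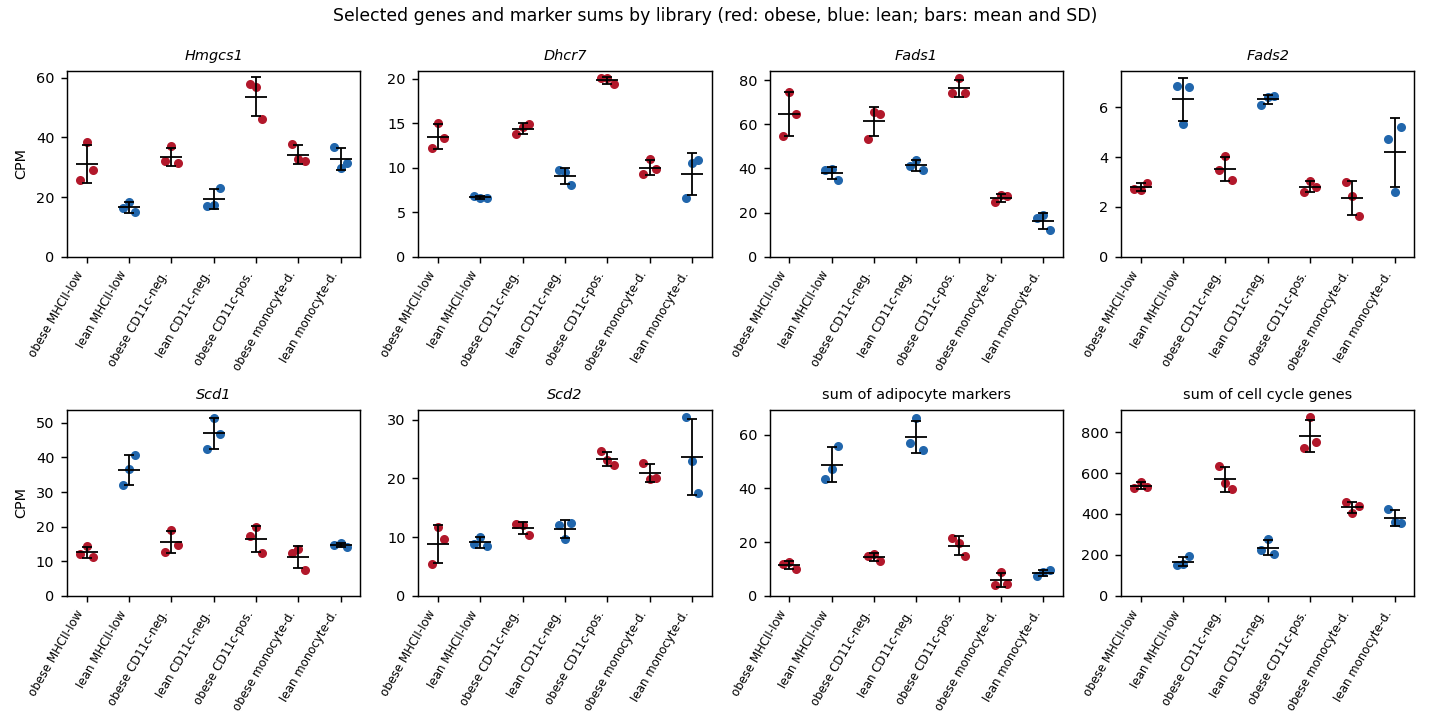
CPM of Hmgcs1, Dhcr7, Fads1, Fads2, Scd1 and Scd2 (TMM-scaled) and summed CPM of 11 adipocyte markers and 10 cell cycle genes (plain CPM) in each library of the 7 groups, with mean and SD (n = 3). Obese libraries are red and lean ones blue. Scd1 and the adipocyte sum are both highest in lean MHCII-low and lean CD11c-negative macrophages, and Hmgcs1 and Dhcr7 are highest in obese CD11c-positive macrophages.

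The desaturases of polyunsaturated fatty acid synthesis, Fads1 and Fads2, are transcribed away from each other on chromosome 19 (chr19:10182888-10196877, plus strand, and chr19:10062765-10101746, minus strand, GRCm38) and moved in opposite directions. Fads2 carries out the first desaturation of the route and Fads1 a later one. Fads1 had 54.7, 74.7 and 64.5 CPM in obese MHCII-low macrophages, against 39.2, 39.7 and 34.61 CPM in lean ones (0.77 ± 0.14, adjusted p = 4.9e-04). In CD11c-negative macrophages Fads1 had 53.5, 65.7 and 64.6 CPM in obese mice, against 40.9, 44.00 and 39.1 CPM in lean mice (0.57 ± 0.14, adjusted p = 0.0043). Obese libraries all lay above lean ones. Fads2 had 2.72, 2.68 and 2.97 CPM in obese MHCII-low macrophages, against 6.85, 5.34 and 6.82 CPM in lean ones (-1.18 ± 0.24, adjusted p = 0.0012). In CD11c-negative macrophages Fads2 had 3.47, 4.06 and 3.08 CPM in obese mice, against 6.09, 6.41 and 6.45 CPM in lean mice (-0.84 ± 0.24, adjusted p = 0.01), a call lost without obese replicate 3. Obese libraries all lay below lean ones. The ratio of Fads1 to Fads2 CPM was therefore 20.1 to 27.9 in obese and 5.08 to 7.43 in lean MHCII-low macrophages, and 15.4 to 20.9 in obese and 6.07 to 6.86 in lean CD11c-negative macrophages. Fads2 was the less covered of the pair, with 39 to 166 reads a library.

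The enzymes that make and lengthen saturated fatty acids seldom passed the test. Fasn, the fatty acid synthase, had 20.1, 33.5 and 25.1 CPM in obese MHCII-low macrophages, against 37.1, 34.56 and 38.7 CPM in lean ones (-0.49 ± 0.18, adjusted p = 0.04), and 38.3, 37.9 and 30.4 CPM in obese CD11c-negative macrophages, against 41.7, 45.00 and 54.5 CPM in lean ones (-0.41 ± 0.17, adjusted p = 0.079). All obese Fasn libraries lay below all lean ones, but the test was passed in MHCII-low macrophages alone, and that call was lost without any 1 of 5 of the 6 libraries (all but obese replicate 2). Acly, which makes cytosolic acetyl-CoA from citrate for both branches, had -0.02 ± 0.11 in MHCII-low and -0.06 ± 0.11 in CD11c-negative macrophages, with 95% intervals of -0.26 to 0.22 and -0.30 to 0.18. Acaca, acetyl-CoA carboxylase, rose in CD11c-negative macrophages (0.36 ± 0.11, adjusted p = 0.016) and was not called in MHCII-low macrophages (0.24 ± 0.11, adjusted p = 0.097). Elovl5, an elongase of polyunsaturated fatty acids, had 79.8, 76.03 and 83.8 CPM in obese CD11c-negative macrophages, against 64.4, 59.7 and 51.6 CPM in lean ones (0.45 ± 0.15, adjusted p = 0.028), and 51.00, 58.9 and 61.1 CPM in obese MHCII-low macrophages, against 56.9, 50.6 and 52.5 CPM in lean ones (0.10 ± 0.15, adjusted p = 0.65). Its obese and lean libraries overlapped in MHCII-low macrophages and not in CD11c-negative ones. The Acaca and Elovl5 calls were both lost without any 1 of the 3 obese CD11c-negative libraries or lean replicate 2, and that of Elovl5 also without lean replicate 3. Elovl6, an elongase of saturated fatty acids, had 3.68, 4.14 and 4.55 CPM in obese MHCII-low macrophages, against 5.89, 5.15 and 5.01 CPM in lean ones (-0.37 ± 0.19, adjusted p = 0.14), and 5.88, 5.15 and 4.49 CPM in obese CD11c-negative macrophages, against 6.33, 5.06 and 4.90 CPM in lean ones (-0.07 ± 0.19, adjusted p = 0.8). It was called in neither, and its libraries did not overlap in MHCII-low macrophages. Acss2, which makes acetyl-CoA from acetate, and Me1, malic enzyme, a source of NADPH, were not called with diet in any population.

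Set side by side, the mean levels of the branches moved apart with diet in macrophages. The mean over genes of log2 CPM, with each gene centred over the 21 libraries, was taken per library for the sterol and the fatty acid branch, as a description with no test. The sterol mean minus the fatty acid mean was 0.32 ± 0.15 in obese and -0.31 ± 0.10 in lean MHCII-low macrophages, and 0.17 ± 0.02 in obese and -0.36 ± 0.02 in lean CD11c-negative macrophages (SD, n = 3 each). It was 0.39 ± 0.11 in obese CD11c-positive macrophages, and -0.03 ± 0.14 in obese and -0.17 ± 0.06 in lean monocyte-derived cells. In the macrophages the difference was above 0 in every obese library and below 0 in every lean one. Both means moved in MHCII-low macrophages. The sterol mean was 0.06 ± 0.11 in obese and -0.29 ± 0.08 in lean mice, and the fatty acid mean -0.26 ± 0.17 in obese and 0.03 ± 0.02 in lean mice. Such a mean weighs a gene that moves far, such as Scd1, more than the counts of genes do. Scd1 and Fads2 stood at 0.346 and 0.440 times the lean mean in obese MHCII-low and 0.332 and 0.560 times in obese CD11c-negative macrophages. The other fatty acid genes ran from 0.713 (Fasn) to 1.71 (Fads1) times in MHCII-low and 0.665 (Me1) to 1.48 (Fads1) times in CD11c-negative macrophages. The fatty acid mean thus does not describe the branch as a whole.

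**Figure D3:**
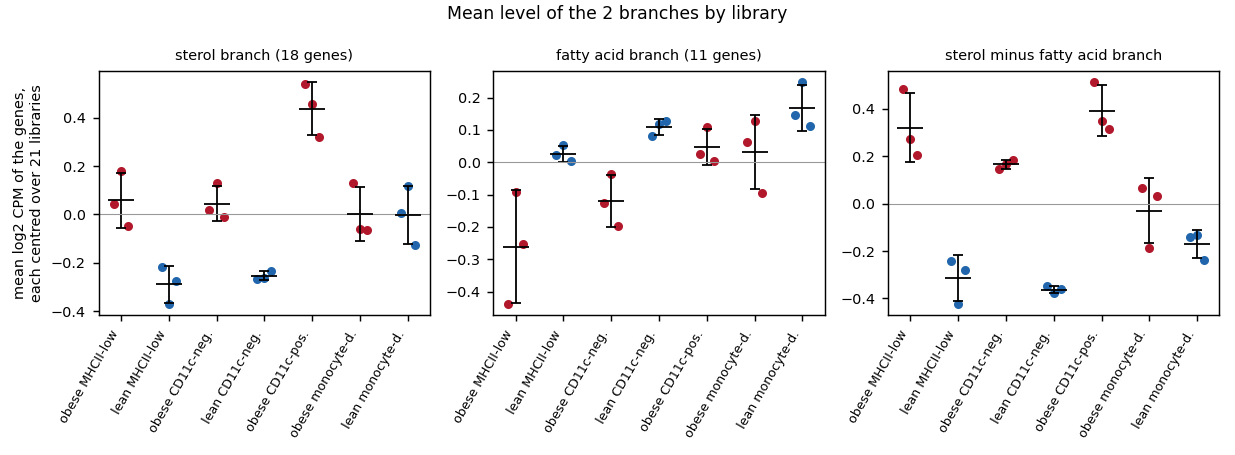
Mean log2 CPM of the 18 sterol genes, of the 11 fatty acid genes and their difference, each gene centred over the 21 libraries, by library (points; red obese, blue lean) with mean and SD of each group (n = 3). The difference lies above 0 in all obese macrophage libraries and below 0 in all lean macrophage and lean monocyte-derived libraries.

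In monocyte-derived cells 5 of the 35 genes changed with diet, where 17.2% of all tested genes were called (7.44% higher and 9.76% lower), so that the share of members, 14.3%, was near the background. Msmo1 and Fads1 rose, and Mvd, Elovl6 and Fads2 fell. Fads1 had 24.7, 28.02 and 27.5 CPM in obese and 17.5, 18.8 and 11.9 CPM in lean cells (0.73 ± 0.15, adjusted p = 0.0029). Fads2 had 3.01, 2.45 and 1.64 CPM in obese and 4.74, 2.61 and 5.23 CPM in lean cells (-0.80 ± 0.25, adjusted p = 0.033). The groups did not overlap for Fads1 and overlapped for Fads2. Elovl6 had 9.15, 7.94 and 6.998 CPM in obese and 11.2, 11.98 and 17.9 CPM in lean cells (-0.76 ± 0.19, adjusted p = 0.011), with no overlap. Hmgcs1, which rose in both macrophage populations, had 37.8, 32.9 and 32.04 CPM in obese and 36.9, 29.9 and 31.3 CPM in lean monocyte-derived cells (0.07 ± 0.15, adjusted p = 0.79), which overlapped. The median sterol gene was at 0.01 and the median fatty acid gene at -0.18, against -0.05 over all tested genes. The count was 2 without obese replicate 2, obese replicate 3 or lean replicate 3, 9 without lean replicate 2, and 0 with only these 6 libraries in the fit, where 4 had an unadjusted p under 0.05 and the spread comes from these libraries alone. Lean replicate 2 differed in markers from the other lean libraries. In lean replicates 1 to 3 the dendritic cell marker Flt3 had 111, 20.9 and 109 CPM, and the macrophage marker Csf1r 335, 848 and 287 CPM. Not every marker went this way, with Xcr1 at 9.82, 23.5 and 16.1 CPM and Fcgr1 at 13.5, 10.6 and 8.15 CPM. The part of this difference in the diet result was not tested. Mvd, Elovl6 and Fads2 each lost their calls without obese replicate 2, obese replicate 3 or lean replicate 3, Mvd also without obese replicate 1 and Fads2 also without lean replicate 1. Cell cycle genes, of which 2 of 10 rose, summed to 405 to 459 CPM in obese and 355 to 424 CPM in lean monocyte-derived cells.

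The diet effect itself differed between populations for some genes. Against that in MHCII-low macrophages, the effect in monocyte-derived cells was lower for Hmgcs1, Idi1, Cyp51 and Dhcr7 and higher, that is less negative, for Scd1, 5 of 35 members where 4.33% of all tested genes were called (1.9% higher and 2.43% lower). Against that in CD11c-negative macrophages it was lower for Hmgcs1, Idi1, Cyp51 and Acaca and higher for Scd1, again 5 members, where 6.36% were called (3.85% higher and 2.51% lower). Scd1 differed by -0.40 ± 0.20 between obese and lean monocyte-derived cells, -1.53 ± 0.20 in MHCII-low and -1.59 ± 0.20 in CD11c-negative macrophages. Idi1 differed by -0.47 ± 0.22 in monocyte-derived cells, 0.75 ± 0.24 in MHCII-low and 0.79 ± 0.23 in CD11c-negative macrophages. These interaction calls were fragile. The first count was 0 without lean MHCII-low replicate 2 or 3, 1 to 3 without 8 other libraries (each obese MHCII-low and each obese monocyte-derived library, lean MHCII-low replicate 1 and lean monocyte-derived replicate 1), and 0 without replicate 2 of every obese group. The second was 1 to 3 without any CD11c-negative library or obese monocyte-derived replicate 2 or 3, and 1, Scd1, without replicate 2 of every obese group. With the replicate numbers as a block within each diet, the second count was 10 and the first 7. The share of all tested genes called under that block is not given here.

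Within obese mice, CD11c-positive macrophages had the highest mean over the 18 sterol genes, 0.44 ± 0.11 on the centred log2 scale above (SD, n = 3), against 0.05 ± 0.07 in CD11c-negative and 0.06 ± 0.11 in MHCII-low macrophages. Relative to CD11c-negative macrophages 3 of the 35 genes rose, Hmgcs1, Msmo1 and Scd2, and 0 fell, where 3.49% of all tested genes were called (1.38% higher and 2.11% lower). All 18 sterol genes had log2 fold changes above 0, from 0.10 for Tm7sf2 to 0.68 for Hmgcs1, with a median of 0.38 against -0.03 over all tested genes. Of these 18 only Hmgcs1 and Msmo1 were called, and the share of all tested genes above 0 is not given here. The fatty acid genes had a median of 0.09. Hmgcs1 had 57.8, 57.03 and 46.2 CPM in CD11c-positive macrophages, above the 32.1, 36.97 and 31.4 CPM of CD11c-negative ones (0.68 ± 0.15, adjusted p = 0.016). Scd2 had 24.7, 23.2 and 22.2 CPM in CD11c-positive macrophages, against 12.3, 12.01 and 10.3 CPM in CD11c-negative ones (1.02 ± 0.21, adjusted p = 0.011). Scd1 had 17.2, 19.8 and 12.5 CPM in CD11c-positive macrophages, against 12.8, 19.1 and 14.8 CPM in CD11c-negative ones (0.08 ± 0.19, adjusted p = 0.87). The groups did not overlap for Hmgcs1 and Scd2 and overlapped for Scd1. Cyp51 (0.52 ± 0.14, adjusted p = 0.0502), Lss (0.67 ± 0.22, adjusted p = 0.099) and Dhcr7 (0.46 ± 0.15, adjusted p = 0.099) missed the threshold. Each CD11c-positive library lay above each CD11c-negative one for these 3 genes, which is no test. With the replicate numbers as a block, which pair the obese libraries, 7 members were called. DESeq2 called 11 and a fit of these 6 libraries alone 12. The share of all tested genes called is given for the main fit alone, so these higher counts need not be particular to the members. The count was 0 without CD11c-negative replicate 1 or 3 or CD11c-positive replicate 2, 1 without CD11c-positive replicate 1, and 0 without replicate 2 of every obese group. Cell cycle genes summed to 720 to 872 CPM in CD11c-positive and 520.0 to 636 CPM in CD11c-negative macrophages. Endothelial markers, of which 0 of 4 were called, summed to 102.4 to 157.8 CPM in CD11c-positive and 50.5 to 97.02 CPM in CD11c-negative macrophages, with no overlap. The part of either list was not tested.

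CD11c-negative and MHCII-low macrophages of obese mice, the subsets split by MHC class II, held 0 members called between them by edgeR, where 3.05% of all tested genes were called (1.19% higher and 1.85% lower). 5 members had an unadjusted p under 0.05, DESeq2 called 3 members, and the fit with replicate numbers as a block called 1. In lean mice 0 members were called by edgeR between the same subsets, where 1.3% of all tested genes were called (1.05% higher and 0.253% lower), with 4 at an unadjusted p under 0.05 and 1 called by DESeq2. Shares of all tested genes called by DESeq2 or with the block are not given here.

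Monocyte-derived cells of obese mice showed another balance of the branches than CD11c-positive macrophages, the group with the highest sterol mean. In obese mice 18 of the 35 genes differed from CD11c-positive macrophages, 6 higher and 12 lower, where 38.7% of all tested genes were called (19.3% higher and 19.4% lower). In the sterol branch 0 rose and 9 fell, among them Lss, Dhcr7, Msmo1 and Nsdhl. In the fatty acid branch 5 rose, namely Fasn, Acaca, Elovl5, Elovl6 and Acss2, and Scd1 and Fads1 fell. Elovl5 had 179, 144 and 166 CPM in obese monocyte-derived cells, against 99.6, 97.9 and 100.2 CPM in CD11c-positive macrophages (0.72 ± 0.15, adjusted p = 8.1e-04). Acss2 had 9.87, 8.82 and 11.2 CPM in obese monocyte-derived cells, against 4.89, 3.85 and 4.85 CPM in CD11c-positive macrophages (1.14 ± 0.19, adjusted p = 7.1e-05). Fads1 had 24.7, 28.02 and 27.5 CPM in obese monocyte-derived cells, against 74.3, 80.9 and 74.02 CPM in CD11c-positive macrophages (-1.52 ± 0.14, adjusted p = 1.7e-07). None of the 3 overlapped between the groups. Lss had 4.19, 3.83 and 3.79 CPM in obese monocyte-derived cells, against 8.85, 9.08 and 6.74 CPM in CD11c-positive macrophages (-1.06 ± 0.23, adjusted p = 8.9e-04). Insig2 had 5.30, 7.30 and 5.69 CPM in obese monocyte-derived cells, against 11.9, 16.9 and 15.5 CPM in CD11c-positive macrophages (-1.28 ± 0.19, adjusted p = 2.9e-05), while Insig1 had 72.9, 80.2 and 85.1 CPM and 76.8, 63.1 and 65.4 CPM in the same cells (0.21 ± 0.18, adjusted p = 0.35). Lss and Insig2 did not overlap either. Srebf2 rose (0.42 ± 0.13, adjusted p = 0.016) and Srebf1 was not called (-0.10 ± 0.15, adjusted p = 0.64). The calls of Ebp and Acaca were lost without any 1 of the 6 libraries, and those of Srebf2, Elovl6 and Scd1 without any 1 of 3 (CD11c-positive replicate 2 for all, replicate 3 for Srebf2 and 1 for the other two, monocyte-derived replicate 1 for Srebf2 and Elovl6 and 3 for Scd1). Dendritic cell markers moved with this contrast, at 388 to 855 CPM in obese monocyte-derived cells and 26.2 to 30.6 CPM in CD11c-positive macrophages, where 6 of 6 rose. Endothelial markers, of which 4 of 4 fell, stood at 26.9 to 90.5 CPM in obese monocyte-derived cells and 102.4 to 157.8 CPM in CD11c-positive macrophages. The part of either list was not tested.

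**Figure D4:**
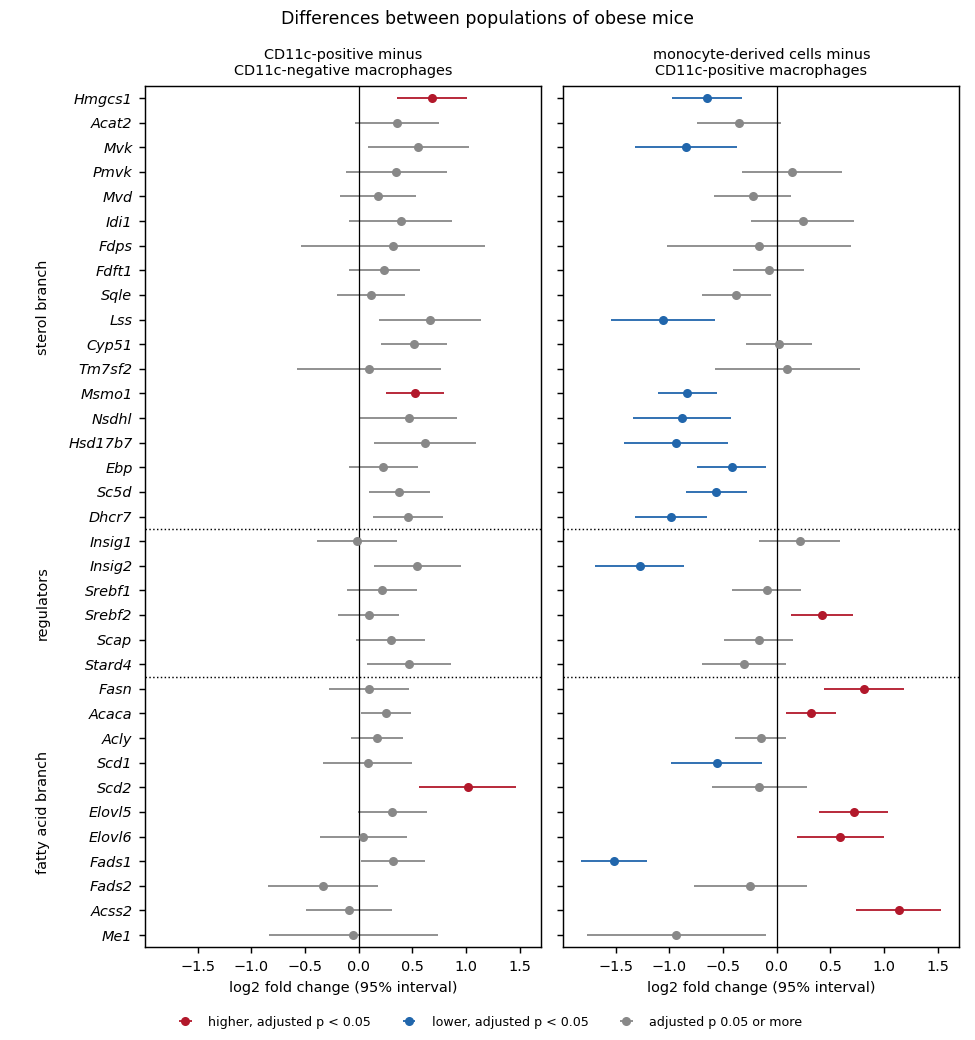
Log2 fold change of the 35 genes (rows, by branch) in obese mice, CD11c-positive minus CD11c-negative macrophages (left) and monocyte-derived cells minus CD11c-positive macrophages (right), with 95% intervals (3 libraries a group) and red or blue for adjusted p under 0.05. All sterol points lie above 0 on the left; on the right 9 sterol points are blue and 5 fatty acid points are red. Both panels use the CD11c-positive libraries, with opposite sign.

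Relative to obese CD11c-negative macrophages, obese monocyte-derived cells differed in 12 members, 9 higher and 3 lower, where 23.8% of all tested genes were called (11% higher and 12.8% lower). Idi1, Cyp51, Srebf2, Fasn, Acaca, Scd2, Elovl5, Elovl6 and Acss2 rose, and Dhcr7, Insig2 and Fads1 fell. Of the sterol branch, Idi1 and Cyp51 thus rose and Dhcr7 fell. The centred sterol mean was 0.002 ± 0.111 in obese monocyte-derived cells and 0.045 ± 0.074 in obese CD11c-negative macrophages. In lean mice it was -0.002 ± 0.121 and -0.254 ± 0.019 in the same order (SD, n = 3 each). In obese mice the count of members was 7 without CD11c-negative replicate 3 or without monocyte-derived replicate 1. Without monocyte-derived replicate 1 the calls of Idi1, Cyp51, Dhcr7, Insig2, Srebf2 and Elovl6 were lost. Idi1 also lost its call without any 1 CD11c-negative library, Dhcr7 and Elovl6 without replicate 2 or 3, Insig2 without replicate 2, Cyp51 and Srebf2 without replicate 3 of those cells, and Idi1 and Dhcr7 without monocyte-derived replicate 3. In lean mice monocyte-derived cells differed from CD11c-negative macrophages in 22 members, 14 higher and 8 lower, where 43.7% of all tested genes were called (23.6% higher and 20.1% lower). Lean Idi1 had 21.3, 11.1 and 10.98 CPM in monocyte-derived cells, against 3.52, 3.399 and 4.85 CPM in CD11c-negative macrophages (1.88 ± 0.24, adjusted p = 1.8e-06). Lean Me1 had 0.462, 0.821 and 0.857 CPM in monocyte-derived cells, against 3.28, 5.02 and 4.94 CPM in CD11c-negative macrophages (-2.63 ± 0.44, adjusted p = 6.0e-05). Neither gene overlapped between the groups. Hmgcs1, Pmvk, Fdps, Srebf1, Srebf2, Stard4, Cyp51, Fasn, Acaca, Elovl5, Elovl6, Acss2 and Scd2 also rose there, and Scd1, Fads1, Fads2, Sqle, Fdft1, Sc5d and Insig2 fell. The calls of Pmvk and Fdft1 were lost without lean monocyte-derived replicate 1, those of Pmvk and Srebf1 without CD11c-negative replicate 2, and that of Fads2 without CD11c-negative replicate 1 or 3 or monocyte-derived replicate 2. Dendritic cell markers, of which 5 of 6 rose, summed to 366 to 1315 CPM in the monocyte-derived cells and 84.6 to 96.5 CPM in lean CD11c-negative macrophages. Adipocyte markers summed to 7.41 to 9.69 CPM in the monocyte-derived cells and 54.4 to 66.02 CPM in lean CD11c-negative macrophages, and 4 of 6 fibroblast markers fell, at 162 to 239 CPM in monocyte-derived cells and 443 to 599.7 CPM in CD11c-negative macrophages. The part of these lists, also in the falls of Scd1 and Fads2, was not tested. These comparisons share groups with those above, so their values are not independent of them.

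Across all groups the levels of members spanned a wide range. Per kilobase of exons, Acly had the highest mean level in both MHCII-low groups (34.59 CPM per kb in obese and 35 in lean cells), and Elovl5 in both monocyte-derived groups (46.3 CPM per kb in obese and 47.6 in lean cells). Fdps was lowest among the members in the MHCII-low groups, at 0.231 CPM per kb in obese and 0.117 in lean cells. Insig1 was above Insig2, and Srebf2 above Srebf1, in the mean of every group on this scale. In obese CD11c-positive macrophages Insig1 was at 22.1 and Insig2 at 4.25 CPM per kb, and Srebf2 at 24.6 and Srebf1 at 15.1 CPM per kb.

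**Figure D5:**
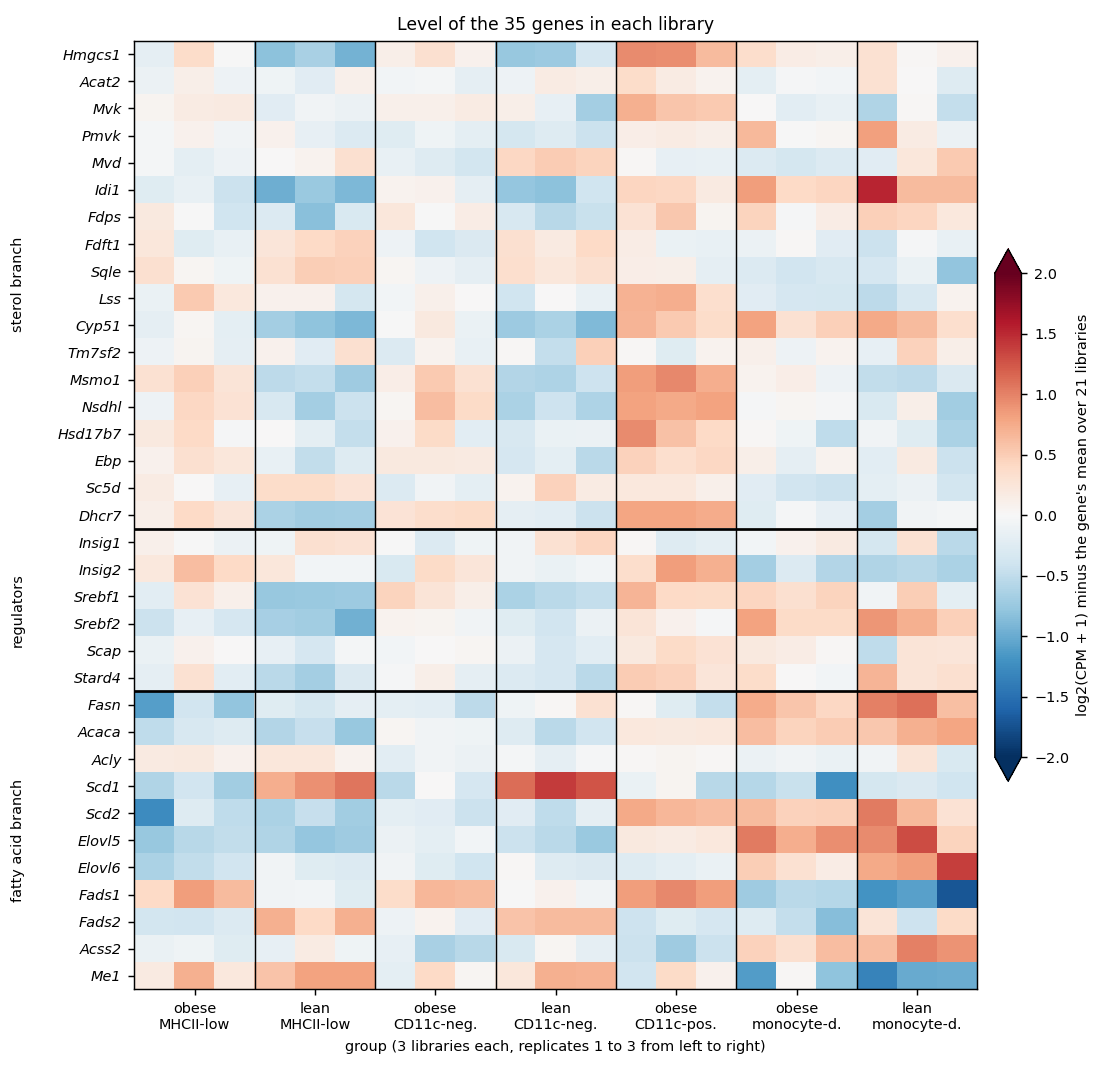
Level of each of the 35 genes (rows, by branch) in each of the 21 libraries (columns, 3 per group) as log2(CPM + 1) minus the mean of the gene over all libraries, red above and blue below. Many sterol genes, such as Hmgcs1, Msmo1 and Dhcr7, are reddest in obese CD11c-positive macrophages, Scd1 in lean macrophages, and Elovl5, Fasn and Acss2 in monocyte-derived cells.

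Genes around the pathway were read as lists of the other genes of sterol and lipid handling. The shares of all tested genes that rose were 16.8%, 16.8% and 7.44%, and of those that fell 13.8%, 15.6% and 9.76%, in MHCII-low and CD11c-negative macrophages and in monocyte-derived cells. Of 7 genes of SREBP processing and sterol sensing, 3 rose and 0 fell in each of the 3 diet comparisons. Of 10 genes of LXR action and sterol efflux, 5 rose in each, and 1 fell in MHCII-low macrophages and 0 in the other two. Nr1h3, the gene of LXR alpha, averaged 20.2 ± 5.57 CPM in obese and 4.97 ± 0.335 CPM in lean MHCII-low macrophages (2.02 ± 0.21, adjusted p = 1.5e-06), and Abcg1, a sterol exporter, 208 ± 71.9 CPM in obese and 35.7 ± 4.82 CPM in lean ones (2.55 ± 0.24, adjusted p = 5.4e-07). In CD11c-negative macrophages they differed by 2.52 ± 0.21 and 2.92 ± 0.24, and in monocyte-derived cells by 2.14 ± 0.22 and 1.78 ± 0.23. Both genes rose in all 3 populations. Of 13 genes of sterol uptake, storage and oxysterols, 7, 7 and 8 rose and 0 fell in MHCII-low and CD11c-negative macrophages and in monocyte-derived cells, and the genes of smallest p were Stard3, a late endosomal sterol carrier (1.16 ± 0.13, adjusted p = 3.3e-06 in CD11c-negative macrophages), Scarb1, a lipoprotein receptor (1.46 ± 0.18, adjusted p = 6.4e-06), and Lrp1, another (1.30 ± 0.19, adjusted p = 4.2e-05). Of 14 genes of isoprenoid side branches, 3, 4 and 2 rose and 0, 1 and 1 fell in the same order of populations. Of 20 other genes of fatty acid and glycerolipid synthesis, 3 rose in each, and 3, 4 and 2 fell, near the shares of all genes in macrophages. Mlxipl, the gene of ChREBP, a glucose-responsive regulator of lipogenesis, averaged 0.982 ± 0.168 CPM in obese and 3.21 ± 0.849 CPM in lean MHCII-low macrophages (-1.70 ± 0.37, adjusted p = 0.0023), and Thrsp, another lipogenic regulator, 0.223 ± 0.159 CPM in obese and 1.39 ± 0.251 CPM in lean ones (-2.60 ± 0.67, adjusted p = 0.0069). Mlxipl also fell in CD11c-negative macrophages (-2.66 ± 0.45, adjusted p = 1.9e-04) and in monocyte-derived cells, with 0.305, 0.600 and 0.379 CPM in obese and 1.21, 1.11 and 0.686 CPM in lean ones (-1.26 ± 0.43, adjusted p = 0.049). Thrsp fell in CD11c-negative macrophages (-2.14 ± 0.65, adjusted p = 0.016) and was not called in monocyte-derived cells (-2.36 ± 1.15, adjusted p = 0.15). Both are known from adipocytes as well, whose marker sums, given above, differed by diet in the macrophages and overlapped between obese and lean monocyte-derived cells.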

How the data were processed

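RNA-seq libraries of sorted adipose tissue myeloid cells were deposited by the authors as raw read counts per gene, with no normalization. Per the submitters' processing notes the build was GRCm38, reads went through bcl2fastq and Trim Galore 0.4.5, and the other tools were STAR 2.6.0a and, from Subread 1.4.6-p5, featureCounts. The annotation release, the strand setting and the handling of multi-mapped reads are not given in the sources used here. NuGen Ovation libraries from amplified PicoPure RNA can hold copies of a molecule, so counting error covers sampling of reads only.

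Gene IDs were matched to GENCODE M21 (53229 of 54532 with version, 54409 without). Counts were filtered with filterByExpr, scaled by TMM and fitted to the 7 group means with edgeR 4.0.16 in R 4.3.3 (quasi-likelihood, 14 residual degrees of freedom). Tests were 2-sided and adjusted by Benjamini-Hochberg over all 22935 tested genes of each of 12 comparisons. Sums of marker lists use CPM of the library total. Promoter stretches came from RefSeq. The model was also run on simulated counts with the same dispersion for all genes and independent libraries. The shared deviations of obese libraries and the wider spread of lean monocyte-derived ones were not simulated. That run therefore does not show how the test behaves on these data. DESeq2 1.42.0 was an alternative, with other scaling, no filter, the compared groups alone, replicate blocks and each replicate left out. Members called in a diet or obese population comparison with an absolute log2 fold change of at least 1, and set pairs of related genes, are given library by library. The members and lists were chosen with earlier results of these data known.

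Obese libraries of equal replicate number deviated together over 8205 genes (r = 0.0829 to 0.771, 17 of 18 pairs over 0.1, against -0.701 to 0.234 for unequal numbers), so a block pairs the obese groups. The pair at 0.0829 joins MHCII-low macrophages and monocyte-derived cells, which meet only in a difference of diet effects.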

Additional observations from a re-analysis of the deposited data

Results flagged for a closer look

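A group of 10 results stood out because the effect of diet differed between populations by a test of the difference itself (edgeR's quasi-likelihood interaction, adjusted over all tested genes). For monocyte-derived cells minus MHCII-low macrophages the log2 differences between the diet effects were -0.85 ± 0.22 for Hmgcs1 (adjusted p = 0.03), -1.21 ± 0.33 for Idi1 (adjusted p = 0.0376), -0.76 ± 0.21 for Cyp51 (adjusted p = 0.0389) and -0.91 ± 0.22 for Dhcr7 (adjusted p = 0.0237). These 4 sterol genes rose with obesity in MHCII-low macrophages and were not called in monocyte-derived cells. For Scd1 the difference was 1.14 ± 0.28 (adjusted p = 0.0237).

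For monocyte-derived cells minus CD11c-negative macrophages the differences were -0.74 ± 0.22 for Hmgcs1 (adjusted p = 0.0466), -1.25 ± 0.32 for Idi1 (adjusted p = 0.0251), -0.84 ± 0.21 for Cyp51 (adjusted p = 0.0183) and -0.52 ± 0.15 for Acaca (adjusted p = 0.0461). For Scd1 the difference was 1.20 ± 0.28 (adjusted p = 0.0141). Both sets use the same monocyte-derived libraries and are not independent. Of the 10 differences, Scd1 against CD11c-negative macrophages was the only one to keep its call without replicate 2 of every obese group. Summed adipocyte markers differed by diet in the macrophages far more than in monocyte-derived cells, and their part in the Scd1 result was not tested.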

How the results depend on the processing

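Of 103 called results of single members over the 12 comparisons, 53 kept their call under every alternative run and 50 lost it under at least 1. None changed sign, and 48 of 317 uncalled results were called under at least 1. The counts of members called moved by over 1.5 times as follows. With no filter, the diet effect in monocyte-derived cells gave 3 members and its difference from that in MHCII-low macrophages 3, and in macrophages Sc5d (both populations), Fdft1 and Stard4 (MHCII-low) and Acaca (CD11c-negative) lost their diet calls. With only the compared groups fitted, the diet effect in monocyte-derived cells gave 0, CD11c-negative minus MHCII-low macrophages 1 in obese and 1 in lean mice, CD11c-positive minus CD11c-negative macrophages 12, and the differences of the monocyte-derived diet effect from those in MHCII-low and CD11c-negative macrophages 1 each. DESeq2 gave 3 and 1 for CD11c-negative minus MHCII-low macrophages in obese and in lean mice, and 11 for CD11c-positive minus CD11c-negative macrophages. Without replicate 2 of all obese groups, a choice made after seeing the data, the counts were 9, 11 and 2 for diet in MHCII-low and CD11c-negative macrophages and in monocyte-derived cells, 0 for CD11c-positive minus CD11c-negative macrophages, and 0 and 1 for the differences of the monocyte-derived diet effect from those in MHCII-low and CD11c-negative macrophages. Shares of all tested genes called are given for the main fit alone, so a moved count need not be particular to the members. Why counts moved was not tested.

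The replicate block on title numbers called 1 member in lean CD11c-negative minus MHCII-low macrophages. The replicate block on description numbers called 1 in that comparison and 1 in its obese counterpart, 7 in CD11c-positive minus CD11c-negative macrophages, and 10 in the difference of diet effects between monocyte-derived cells and CD11c-negative macrophages. It moved no other count by over 1.5 times. Lean libraries of equal title number correlated at -0.31 to 0.546 (4 of 9 pairs over 0.1). Those of equal description number correlated at 0.0527 to 0.546 (5 of 7 over 0.1), and those of unequal description number at -0.384 to 0.606 (2 of 20). The highest lean value, 0.606, joined MHCII-low replicate 2 and CD11c-negative replicate 3, which differ in both numbers. Across diets 4 of 36 pairs of equal title number were over 0.1, against 22 of 72 of unequal number. Not every lean pair passed 0.1, so lean numbers, like numbers across diets, are taken as names only. The lean description numbers are at most a hint of pairing, which the pair at 0.606 does not follow.

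Leaving out 1 library at a time gave 9 to 17 members for diet in MHCII-low macrophages, 12 to 18 in CD11c-negative macrophages and 2 to 9 in monocyte-derived cells. For obese mice it gave 0 to 1 for CD11c-negative minus MHCII-low macrophages, 0 to 4 for CD11c-positive minus CD11c-negative macrophages, and 13 to 19 and 7 to 13 for monocyte-derived cells minus CD11c-positive and minus CD11c-negative macrophages. For lean mice it gave 0 to 1 for CD11c-negative minus MHCII-low macrophages and 20 to 24 for monocyte-derived cells minus CD11c-negative macrophages. For differences of diet effects it gave 0 throughout between the macrophage populations, and 0 to 7 and 1 to 7 for monocyte-derived cells against MHCII-low and CD11c-negative macrophages. Depth limits Fdps (3 to 59 reads a library), Tm7sf2 (29 to 76) and Me1 (8 to 162) most.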
